A study of Mus musculus with 14 samples.

Results

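The comparison described here set retinal ganglion cell libraries taken at symptom onset of experimental autoimmune encephalomyelitis (EAE) against libraries taken before symptoms. Its members were chosen by their labels: 4 libraries labelled onset and 4 labelled pre (EAE, presymptomatic), which are 8 of the 13 libraries in the count table. Every row of the table that names a gene was used, and 14893 of 40840 genes passed the filter on low counts and were tested. All 8 libraries came from eyes of female mice, with an age given as 7 to 8 weeks for every sample and stage, and both groups carried the EAE treatment. They therefore differ by stage and not by immunization. The 4 naive libraries, labelled Control and of the same sex and age, serve only as a reference level. The labels give no strain, immunogen, clinical score or day, and describe no sort or capture of ganglion cells.

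Ganglion cells are the output neurons of the retina, and their axons form the optic nerve. EAE serves as a model of multiple sclerosis: immune cells attack myelin, inflammation often reaches the optic nerve, and ganglion cells are later lost. The ganglion cell body lies in the unmyelinated retina, among amacrine and bipolar interneurons, photoreceptors, Müller glia, microglia and vessels. Transcripts of injured ganglion cells and of activated glia are the usual readouts of this model.

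Gene totals ran from 2910710 to 6168741 counts in pre and from 2596705 to 6413329 at onset. Levels are given as CPM, the usual depth-normalized count scale, here on TMM library sizes, in the order of replicates 1 to 4, and values in brackets after a gene's levels are log2 fold changes of onset against pre ± SE. A count of 3, taken as the smallest told apart from 0, equals 0.467 to 1.14 CPM in a single library of these groups, and counting limits of this kind cover counting error only. The labelled cell type was checked against its markers. The defining ganglion cell genes Rbpms, Slc17a6 and Pou4f1 had counts in all 8 libraries. The ganglion cell marker list summed to 1224 to 1917 CPM in pre and 1198 to 1419 at onset. Amacrine markers summed to more, at 8407 to 8866 CPM in pre and 7586 to 9230 at onset. Rod markers summed to 863 to 3781 CPM in pre and 1095 to 8740 at onset, and Müller and microglial markers were present throughout. Sums of different marker lists do not give shares of cells. The libraries are therefore called by their label but held much RNA of other retinal cells. In such bulk RNA, fewer cells of a type and less RNA per cell cannot be told apart. The oligodendrocyte genes Mobp, Olig1, Olig2 and Sox10, the pigment epithelium genes Rpe65 and Tyr, the lens genes Cryaa and Mip and the globin genes were at 0 counts in all 8 libraries. Nothing in the labels says whether replicates were separate animals or pools, so the tests measure only the spread between these samples.

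No gene passed the test between onset and pre. edgeR's quasi-likelihood test with Benjamini-Hochberg adjustment called 0 of 14893 genes (0% called), with a smallest adjusted p of 0.467. At an unadjusted p under 0.05 it gave 1015 genes (6.82% of those tested, where 744.65 are expected by the threshold alone), of which 462 (3.1%) were higher and 553 (3.71%) lower at onset. limma-voom with quality weights also called 0 genes, with 1162 at an unadjusted p under 0.05. DESeq2 gave 959 of 25629 tested genes an unadjusted p under 0.05, where 1281.45 are expected by the threshold alone. It called 22 of the 2042 genes to which its filter gave an adjusted p (1.08%), 3 of them higher and 19 lower at onset. The 3 higher genes were Plxnb1, Ptprg and Snrnp200. Among the 19 lower genes were Ntrk2, Kcnab2, Lynx1, Map1a, Csdc2 and Adam11. Without that filter DESeq2 called 9 of 25629 genes, 2 higher and 7 lower. Because nothing passed the main test, the genes below are described by their levels and by whether the groups overlap.

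**Figure D1:**
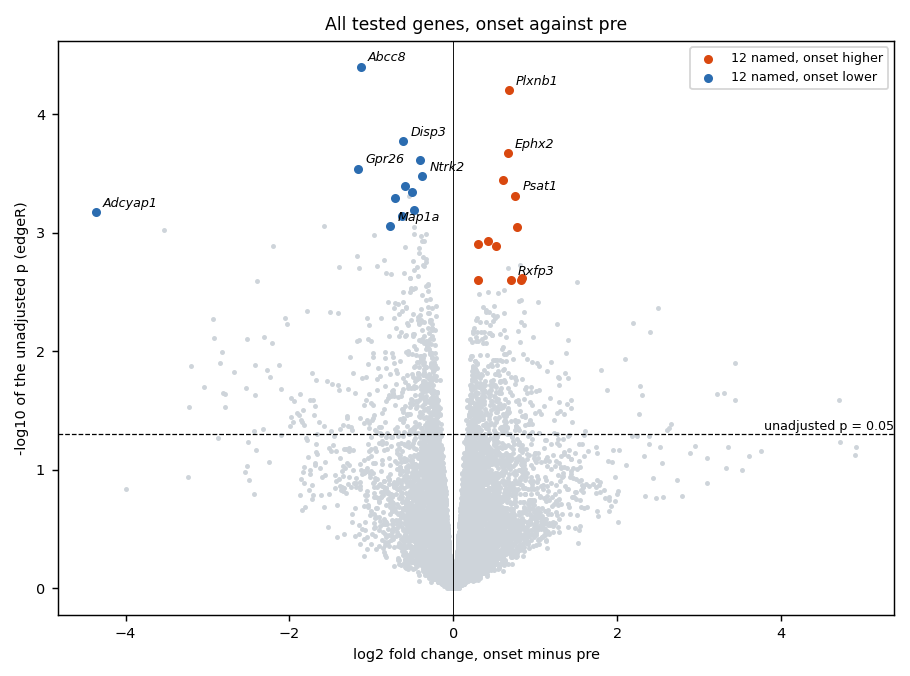
Each of the 14893 tested genes is plotted by its log2 fold change, onset minus pre (x axis), and the −log10 of its unadjusted edgeR p (y axis). The coloured points are the 12 genes with the smallest p in each direction among those whose groups do not overlap; the dashed line marks an unadjusted p of 0.05, and the smallest adjusted p was 0.467.

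The stages interleaved among the 8 libraries. In a principal component analysis of the 8 libraries, the first component held 36.3% of the variance and placed onset 3 at 58.7 and pre 4 at 23.9, the 2 libraries with the highest mean level of rod markers (7.99 and 6.97 log2 CPM). At its other end lay onset 2 at −37.05. Across genes, which are not independent replicates, pre libraries correlated with each other at a median r of 0.966, onset libraries at 0.954 and pre with onset libraries at 0.962. The ranges behind these medians overlapped, at 0.964 to 0.981, 0.940 to 0.978 and 0.940 to 0.983.

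The genes with the smallest p among those lower at onset are described first. Abcc8, the sulfonylurea receptor subunit of ATP-sensitive potassium channels, was at 30.05, 21.2, 36.3 and 29.2 CPM in pre and 17.1, 11.4, 14.1 and 11.05 at onset. Every onset library lay below every pre library (log2 fold change −1.13 ± 0.19, SE, edgeR adjusted p = 0.467). The 4 naive libraries, at 13.2 to 17.8 CPM, lay below all 4 pre libraries and overlapped the onset libraries. Gpr26, an orphan G protein-coupled receptor, was at 20.8, 14.1, 21.3 and 14.3 CPM in pre and 11, 8.73, 5.21 and 6.85 at onset (−1.16 ± 0.24). Its highest onset value stayed under its lowest pre value, and naive libraries, at 12.7 to 19.2 CPM, were all above onset. Disp3, a member of the Dispatched family of membrane proteins, was at 56.1, 44.1, 57.98 and 49.6 CPM in pre and 27.7, 39.3, 32.3 and 35.8 at onset (−0.61 ± 0.12), again with naive above onset at 50.6 to 55.2. Lynx1, a membrane-anchored modulator of nicotinic acetylcholine receptors, was at 167, 129, 197 and 187 CPM in pre and 104, 111, 74.8 and 123 at onset (−0.72 ± 0.16). The gap between the nearest Lynx1 libraries of the groups was small, with pre 2 lowest in pre and onset 4 highest at onset.

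Ntrk2 encodes TrkB, the receptor for brain-derived neurotrophic factor on ganglion cells and other neurons. It was at 143, 139, 149 and 152 CPM in pre, 115, 116, 96.2 and 120.1 at onset and 141, 156, 152 and 149 in naive. Pre and naive libraries overlapped and all onset libraries lay under both (log2 fold change −0.38 ± 0.079, adjusted p = 0.579). Kcnab2, a beta subunit of voltage-gated potassium channels, was at 346, 293, 343 and 352 CPM in pre and 231, 268, 178 and 209.8 at onset (−0.59 ± 0.12). Hcn4, a pacemaker cation channel, was at 36.1, 41.8, 48.5 and 41.5 CPM in pre and 27.3, 33.7, 24.8 and 23.3 at onset (−0.62 ± 0.14). Map1a, a microtubule-associated protein of axons and dendrites, was at 369, 396, 585 and 376 CPM in pre, with pre 3 standing high, and 269, 288, 181 and 274 at onset (−0.77 ± 0.18). Adcyap1 encodes PACAP, a neuropeptide of a subset of ganglion cells, and was at 2.82, 2.47, 5.94 and 0.503 CPM in pre and 0, 0, 0 and 0.311 at onset. That is 48 counts in the 4 pre libraries and 2 in the 4 onset libraries, a ratio of onset to pre of 0.0438 with a counting interval of 0.00515 to 0.167. Ptpn2, a phosphatase that limits cytokine signalling, Csdc2, an RNA-binding protein with a cold shock domain, and Adam11, a catalytically inactive metalloprotease relative at nerve terminals, completed the 12. Their log2 fold changes were −0.40, −0.51 and −0.48. Adjusted p-values of the 24 lead genes of both directions ran from 0.467 to 0.615.

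The 12 genes with the smallest p among those higher at onset came from several functions. Plxnb1, a receptor for the semaphorin Sema4d, was at 86.9, 109, 88.7 and 91.4 CPM in pre and 165, 122, 155 and 158 at onset (log2 fold change 0.67 ± 0.12, SE, adjusted p = 0.467). Onset 2 was the lowest onset library and still lay above pre 2, the highest of pre, and naive libraries spanned the gap at 106 to 140.2 CPM. Ephx2, the soluble epoxide hydrolase, was at 45.8, 46.9, 36.7 and 30.2 CPM in pre and 68.2, 64.2, 63.1 and 58.5 at onset (0.66 ± 0.13). Naive libraries overlapped pre and lay under all onset libraries, at 43.2 to 53.4. Rxfp3, a receptor for the peptide relaxin-3, was at 48.6, 38.6, 45.8 and 24.9 CPM in pre and 71.3, 54.3, 58.1 and 73.1 at onset (0.70 ± 0.19), again with naive under onset at 27.98 to 40.4. Eln, which encodes elastin, was at 47.4, 38.5, 46.1 and 37 CPM in pre and 73.2, 54.5, 58.4 and 71.6 at onset (0.61 ± 0.13). Here it was pre that lay apart, under the naive range of 50.9 to 66.3. Snrnp200, a helicase of the spliceosome, was at 294, 324, 302 and 293 CPM in pre and 411, 367, 348 and 369 at onset (0.30 ± 0.08), and pre was likewise under naive (326 to 397). Arhgef19, a guanine nucleotide exchange factor, Arrdc2, an alpha-arrestin, and Dpm3, a subunit of dolichol-phosphate mannose synthase, had log2 fold changes of 0.78, 0.82 and 0.84. Those of Ptprg, a receptor tyrosine phosphatase, Ilvbl and Specc1l were 0.52, 0.43 and 0.31. The remaining gene, Psat1, belongs to serine synthesis and is described with that group.

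**Figure D2:**
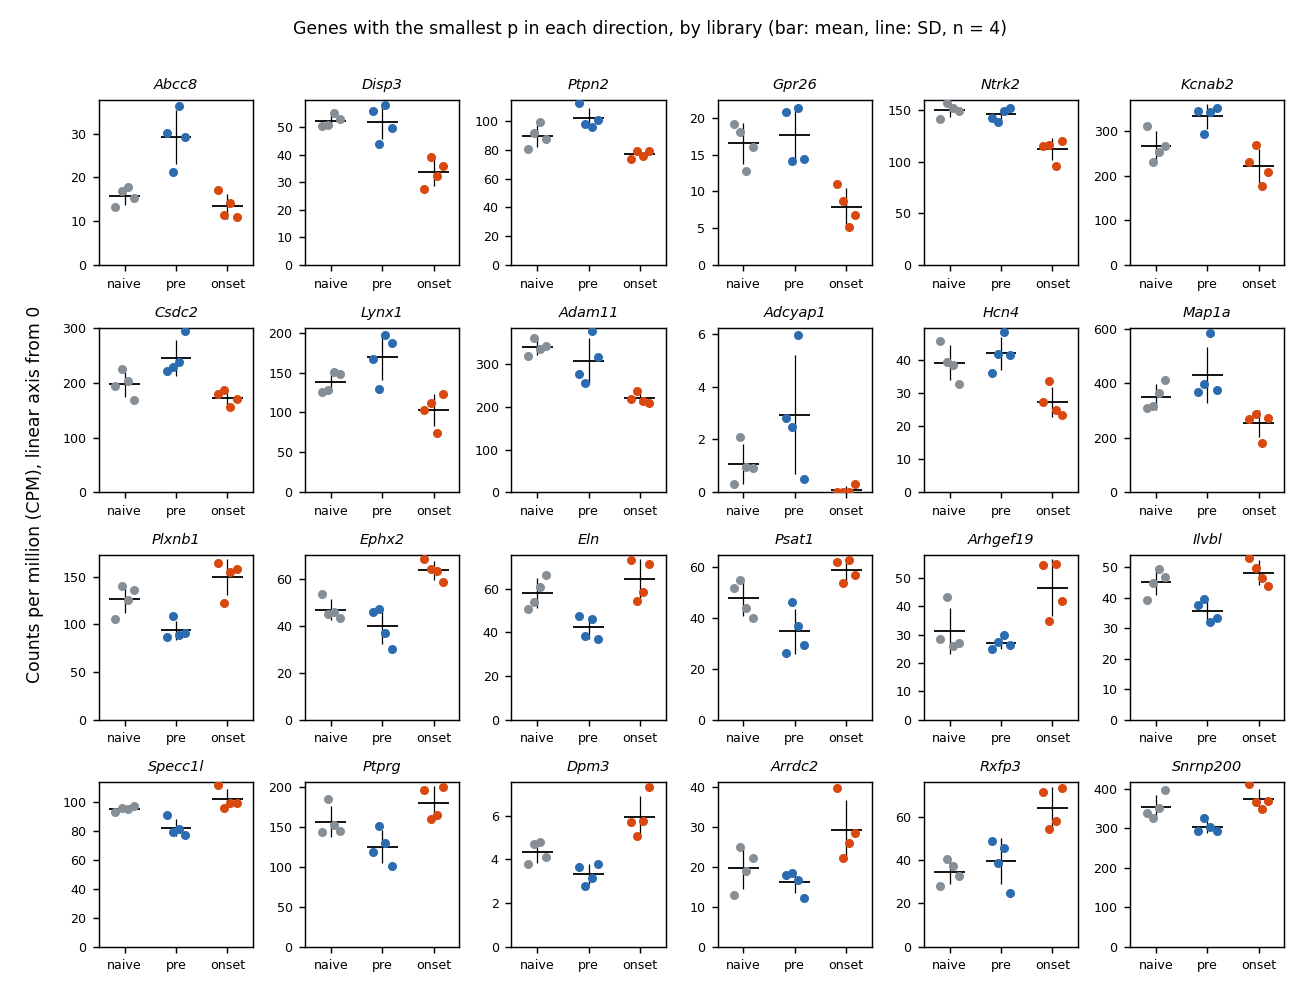
CPM of the 24 lead genes in each naive, pre and onset library (points; bar, mean; line, SD; n = 4 per group; linear axes from 0). The upper 2 rows show genes lower at onset and the lower 2 rows genes higher at onset. Abcc8 in pre stands above naive and onset, while Ntrk2, Gpr26 and Disp3 at onset stand under naive and pre.

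The naive level lay nearer to pre for most lead genes lower at onset, with no such lean among those higher at onset. Of the 12 lead genes lower at onset, 9 had a naive mean closer to pre than to onset on the log2 scale, and 8 had all onset libraries outside the naive range. Pre was outside the naive range for 1, Abcc8. Of the 12 lead genes higher at onset, 5 had a naive mean closer to pre and 7 closer to onset, and 3 had onset and 3 had pre outside the naive range. Over all 369 tested genes with onset below pre and no overlap, naive was closer to onset for 40.4%. The share was 58.3% for the 295 genes with onset above pre and 50.1% over all tested genes. Onset was outside the naive range for 55 of the 369 genes, 39 of the 295 and 458 of all 14893 tested. Pre was outside it for 26, 50 and 444 of these. The lead genes were picked by p and lack of overlap in these same data, so their counts are not set against these shares. These naive positions are a description and were not tested.

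Most ganglion cell marker genes had lower levels at onset. Of the 15 tested members of a list of 16, 12 were lower and 3 higher, with a median log2 fold change of −1.27, against 0.0127 over all tested genes, of which 7857 (52.8%) were higher. None passed the adjusted test, and 9 of the 12 had an unadjusted p under 0.05, where 3.71% of all tested genes were lower at that threshold. Only Nefl and Isl2 had all onset libraries below all pre libraries, a pattern that 2.48% of all tested genes showed (1.98% showed the reverse). Rbpms, an RNA-binding protein found in nearly all ganglion cells, was at 30.9, 27.3, 64.6 and 7.05 CPM in pre and 14.4, 5.58, 3.91 and 5.14 at onset (−2.21 ± 0.69). Pre 3 was the highest and pre 4 overlapped the onset libraries, of which onset 1 was the highest. Slc17a6, the vesicular glutamate transporter of ganglion cells, followed the same order, at 27.2, 25.7, 70.5 and 5.29 CPM in pre and 11.4, 3.88, 2.09 and 3.73 at onset (−2.68 ± 0.92). Pou4f2, a transcription factor of the Brn3 family, was at 4.03, 4.6, 19.2 and 1.76 CPM in pre and 2.65, 0, 0 and 1.56 at onset (−2.81 ± 1.06), and its relative Pou4f1 was at 20.8, 24.7, 56.9 and 3.52 and 25.02, 3.15, 2.35 and 6.22 (−1.60 ± 0.93). Isl2, a LIM-homeodomain factor of a subset of ganglion cells, was at 4.44, 4.28, 10.5 and 1.51 CPM in pre and 1.14, 0.97, 0.261 and 1.25 at onset (−2.42 ± 0.84). Sncg, gamma-synuclein, was at 12.9, 11.8, 22 and 8.56 CPM in pre and 8.72, 1.45, 2.87 and 2.8 at onset (−1.88 ± 0.78). Thy1, a surface glycoprotein that other neurons carry too, differed little, at 548, 623, 600.4 and 506 CPM in pre and 576, 681, 554 and 563 at onset (0.06 ± 0.22).

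The lower ganglion cell levels rested in part on pre 3. Across libraries the mean of the ganglion cell list was 5.14, 5.24, 6.05 and 4.35 log2 CPM in pre and 4.72, 3.64, 3.66 and 4.12 at onset. Onset 1 thus lay above pre 4. Without pre 3 the median of the list was −0.93 and 3 members had an unadjusted p under 0.05, where 753 of 14860 tested genes did in either direction. The median stayed below 0 under all 22 alternative settings, from −1.50 to −0.93. Naive libraries lay from 3.67 to 5.30, under pre 3 and just above onset 2 and onset 3. Whether the number of ganglion cells per library differed was not tested.

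Neurofilament transcripts, which encode the intermediate filaments of large axons, were lower at onset. Nefl, the light chain, was at 218, 237, 325 and 328 CPM in pre and 122, 113, 103 and 122 at onset (log2 fold change −1.27 ± 0.41, adjusted p = 0.653). The onset libraries were close together and all under the pre libraries, and naive values were spread from 139.9 to 633. Nefm was at 109.6 ± 51.5 in pre and 57.7 ± 19.8 at onset (mean CPM ± SD, n = 4 each; −0.92 ± 0.42), and its groups overlapped. Nefh was at 37.3, 44.6, 76.5 and 37.3 CPM in pre and 22.4, 20.4, 19.03 and 40.6 at onset (−0.90 ± 0.32), where onset 4 reached into the pre range. Ina, alpha-internexin, the remaining tested member, did not share the difference (−0.02 ± 0.12). The 4 tested neuronal intermediate filament genes had a median of −0.91 (−0.62 without pre 3), and the 3 neurofilament genes are also in the ganglion cell list.

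Voltage-gated channel genes leaned to lower levels at onset by small amounts. Of 29 tested, 25 were lower and 4 higher, with a median log2 fold change of −0.18 (−0.32 to −0.13 on leaving out each library in turn). The mean of the list was 7.54 to 7.62 log2 CPM in pre and 7.23 to 7.49 at onset, and 5 members had onset below pre without overlap, where 2.48% of all tested genes did. Scn1a, an alpha subunit of sodium channels, was at 209.7, 171, 237 and 188 CPM in pre and 135, 161, 128 and 117 at onset (−0.57 ± 0.16). All its onset libraries lay under its pre libraries. Kcnd2, a subunit of transient potassium channels, had a larger difference that followed the ganglion cell markers in pre, at 18.8, 18.4, 38.8 and 5.54 CPM in pre and 7.2, 5.33, 2.35 and 4.98 at onset (−2.04 ± 0.60); pre 4 overlapped onset. Most other channel genes overlapped between the stages.

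Synaptic genes showed the same lean. Of 25 presynaptic genes, 21 were lower and 4 higher (median −0.21), and of 27 postsynaptic scaffold and receptor genes, 21 were lower and 6 higher (median −0.15). The presynaptic mean was 7.810 to 7.968 log2 CPM in pre and 7.596 to 7.771 at onset. Syt2, a calcium sensor of fast transmitter release, was at 4.64, 3.62, 8.73 and 5.54 CPM in pre, 0.758, 1.7, 1.3 and 0.934 at onset and 1.26, 4.72, 7.44 and 9.25 in naive (−2.20 ± 0.54). All its onset libraries lay below all pre libraries, at levels near 1 CPM. Cplx1, complexin 1, which binds the release machinery, was at 102, 95.5, 94.3 and 105 CPM in pre and 65.97, 80.98, 58.4 and 93.8 at onset (−0.40 ± 0.16). Unc13a, a vesicle priming factor, was at 478, 601, 803 and 767 CPM and 519, 519.8, 474 and 511 (−0.39 ± 0.16), with pre 1 among the onset values. The 3 Shank genes, scaffolds of excitatory synapses, were lower together: Shank3 was at 72.8, 63.3, 65.7 and 69.7 CPM in pre and 56.9, 54.1, 45.4 and 53.8 at onset (−0.37 ± 0.095), without overlap. Shank2 and Shank1 differed by −0.39 ± 0.13 and −0.29 ± 0.11 and overlapped. The presynaptic median stayed between −0.28 and −0.14 and the postsynaptic one between −0.21 and −0.11 under all settings. The number of presynaptic members lower at an unadjusted p under 0.05 was 6, where 3.71% of all tested genes were. It was 1 without onset 1 or without onset 3, where 475 of 14815 and 445 of 14790 tested genes were lower.

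Genes of the neuronal cytoskeleton were lower by similar small amounts. All 12 tested tubulin genes were lower (median −0.18), although 2 of them were higher without onset 3 or without pre 4, and 1 without onset 2 or without pre 3. Their mean was 6.12 to 6.33 log2 CPM in pre and 5.91 to 6.09 at onset. Tubb3, the neuron-specific beta-tubulin, was at 55.9, 50.8, 69.2 and 56.4 CPM in pre and 44.7, 45.6, 28.4 and 45.8 at onset (−0.49 ± 0.15), with onset 3 the lowest. Tuba4a was at 98.8, 95.7, 91.5 and 105 CPM in pre and 81.9, 70.3, 63.1 and 65.98 at onset (−0.48 ± 0.16), without overlap. Among 15 microtubule-associated genes, 11 were lower (median −0.089), and Map1a, Map6 (−0.34 ± 0.086) and Map1b (−0.39 ± 0.15) did not overlap. Sptbn4, a spectrin of the axon initial segment and nodes of Ranvier, was at 257, 277, 292 and 306 CPM in pre and 218, 240.02, 186 and 233 at onset (−0.37 ± 0.093). Of the 15 spectrin, ankyrin and spectraplakin genes, 12 were lower (median −0.15, and −0.030 without pre 3). Motor genes were near 0 as a group (8 higher, 13 lower, median −0.016), though the anterograde motors Kif5b and Kif5c were at −0.30 and −0.28.

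Neurotrophic receptors and guidance genes were mixed. Of 13 tested neurotrophins and receptors, 5 were higher and 8 lower, with a median of −0.36 that was −0.16 without onset 3. Beside Ntrk2, Ntrk3, the receptor for neurotrophin-3, was at 165, 118, 168 and 188 CPM in pre and 103, 136, 114 and 75.01 at onset (−0.58 ± 0.19), with onset 2 inside the pre range. Gfra2, the co-receptor for neurturin, was at 38.7, 37.8, 28.3 and 80.3 CPM in pre and 23.9, 31.03, 16.4 and 19.6 at onset (−1.03 ± 0.39), with pre 4 standing high. Of 18 plexin and semaphorin genes, 14 were lower and 4 higher (median −0.13). Sema4d, the ligand of Plxnb1, was at 82.7, 82.7, 118 and 105 CPM in pre and 76.6, 75.2, 80.5 and 71.3 at onset (−0.35 ± 0.12), so ligand and receptor differed in opposite directions, each without overlap and neither past the adjusted test. Axon injury and regeneration genes split 8 higher and 9 lower, and their median of −0.058 ran from −0.12 without pre 4 to 0.12 without pre 2 and turned in 5 of 22 settings. Klf7, a growth-promoting transcription factor, was lower without overlap (−0.31 ± 0.13), and the injury factor Sprr1a had 0 counts in all 8 libraries.

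**Figure D3:**
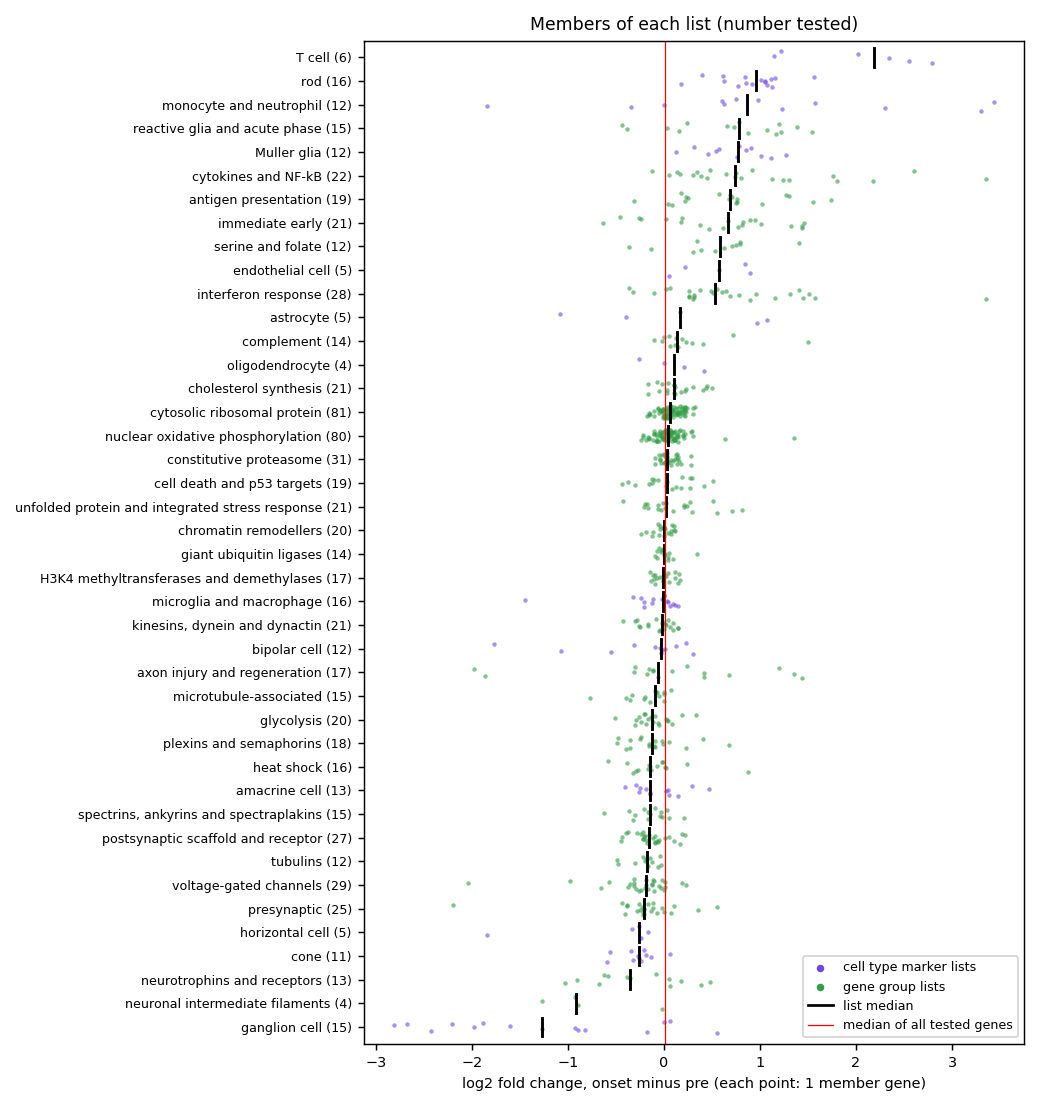
Log2 fold change, onset minus pre, of each tested member of each list with at least 4 tested members (points; black bars, list medians; red line, median of all tested genes at 0.0127; number tested in brackets). Ganglion cell and neurofilament genes lie at the low end, T cell, rod, myeloid and glial genes at the high end, and most neuronal groups lie slightly under 0.

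Markers of the other retinal cells varied widely between libraries of the same stage. All 16 rod genes were higher at onset (median 0.96), but the median was −0.24 without onset 3 and 2.01 without pre 4. The mean of the rod markers was 4.18, 4.72, 5.21 and 6.97 log2 CPM in pre and 6.05, 4.72, 7.99 and 5.15 at onset, with pre 4 and onset 3 the highest of their stages. All 12 Müller glia genes were higher at onset (median 0.77), and 9 were without onset 3 (median 0.079). Glul, glutamine synthetase, named after its values were seen, was at 490.01, 426, 1213 and 1126 CPM in pre and 1734, 410.2, 2094 and 510.4 at onset, high in pre 3, pre 4, onset 1 and onset 3. Cone markers had a median of −0.26 that turned to 0.36 without pre 4, and bipolar markers one of −0.034 that ran from −0.93 without onset 3 to 0.34 without pre 4 and turned in 4 of 22 settings. Amacrine markers split 6 higher and 7 lower, and their median of −0.14 turned to 0.023 without onset 3. All 5 tested horizontal cell markers were lower, of which Slc4a3, an anion exchanger, did not overlap, at 251, 214, 249 and 235 CPM in pre and 199, 206, 163 and 185 at onset (−0.33 ± 0.084).

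**Figure D4:**
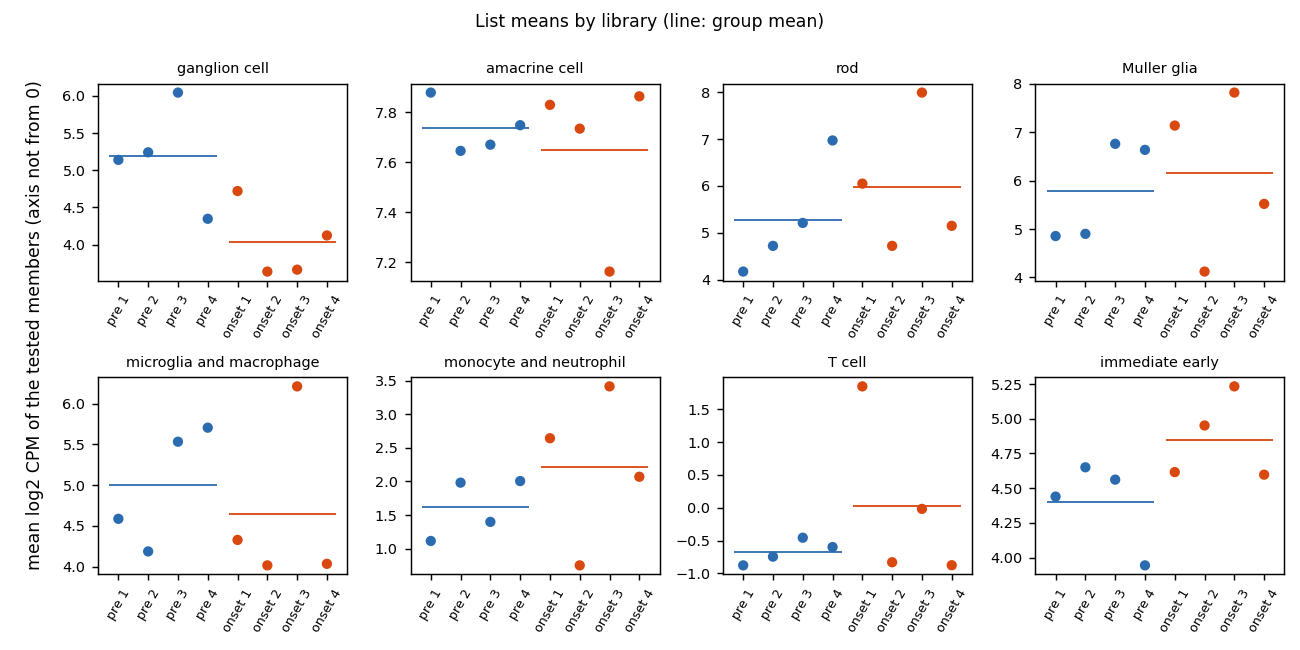
Mean log2 CPM of the tested members of 8 lists in each pre and onset library (points; line, group mean; axes do not start at 0). Ganglion cell markers are highest in pre 3 at 6.05; rod, microglia and myeloid markers are highest in onset 3; T cell markers are highest in onset 1.

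The direction of microglia and macrophage markers depended on the libraries and the model. Of 16 tested, 7 were higher and 9 lower, with a median of −0.015 that ran from −0.996 without onset 3 to 0.25 without pre 4. All 16 were lower with voom quality weights (median −0.42), with either replicate block (−0.30 and −0.33), without onset 3, without pre 1 or without pre 2 (−0.22 each), and without the 4 rod-rich libraries (−0.71). With the rod index as covariate, which is the mean level of rod markers, all 16 were lower too, with a median of −0.73. In that fit 14 of them had an unadjusted p under 0.05, where 835 of all 14893 tested genes were lower at that threshold. The median was above 0 in 6 of 22 settings, among them those without onset 2 or without onset 4, where 13 of 16 were higher. Other settings were split more evenly, such as 6 higher and 10 lower with DESeq2 and 8 each way with upper-quartile factors. Their mean was 4.59, 4.19, 5.53 and 5.71 log2 CPM in pre and 4.33, 4.02, 6.21 and 4.04 at onset. Onset 3 was the highest of all 8 libraries, and the other 3 onset libraries lay under pre 1. Tmem119, a marker of resident microglia, was at 21.2, 16.6, 48.5 and 53.6 CPM in pre and 18.96, 14.8, 62.03 and 14.8 at onset (−0.33 ± 0.64). Fcrls, another microglial receptor, was at 5.44, 0.329, 8.38 and 6.29 CPM and 3.03, 1.94, 2.09 and 0.623 (−1.44 ± 0.84).

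Transcripts of infiltrating leukocytes were sparse at both stages. Of 12 tested monocyte and neutrophil genes, 10 were higher and 2 lower at onset (median 0.87). Without onset 3, 9 passed the filter, 5 higher and 4 lower (median 0.35), and with pre and onset libraries alone 5 passed, 4 higher and 1 lower, so no direction is read from the first count. Ngp, a neutrophil granule protein, was at 0, 2.47, 0 and 0.503 CPM in pre and 12.9, 0, 16.4 and 9.8 at onset (3.44 ± 1.26), and was at 0 counts in the 4 naive libraries. It was high in onset 1, 3 and 4 and at 0 counts in onset 2. Camp, the cathelicidin of neutrophil granules, had 3 counts in pre and 31 at onset, a ratio of 10.9 with a counting interval of 3.38 to 55.5, and was likewise at 0 counts in onset 2 and in naive. Chil3, a chitinase-like protein of myeloid cells, was at 0, 0.329, 0 and 1.01 CPM in pre and 1.52, 0.485, 3.39 and 1.71 at onset (2.31 ± 0.90). S100a8 and S100a9, the abundant granulocyte calcium-binding pair, named after their values were seen, overlapped: S100a9 was at 9.07, 19.7, 8.03 and 17.1 CPM in pre and 30.7, 4.36, 39.4 and 18.4 at onset, and at 0 counts in naive. Cxcr2, the chemokine receptor of neutrophils, also named after its values were seen, was lower at onset (−1.85 ± 0.81).

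Of 10 T cell genes, 6 passed the filter on low counts, all 6 with a higher level at onset (median 2.18). None passed it with pre and onset libraries alone, and since such sparse genes pass through the libraries where they are high, no direction is read from that count. Lck, the T cell receptor kinase, was at 0.202, 0.329, 1.75 and 0.252 CPM in pre and 7.2, 0.97, 1.3 and 0.623 at onset (2.02 ± 1.02). Cd4 had 2 counts in pre and 10 at onset, a ratio of 5.25 (1.12 to 49.3), and Cd2 had 1 and 8 counts, a ratio of 8.40 (1.13 to 373). The summed level of the T cell list was 1.01 to 3.14 CPM in pre, 30.3 CPM in onset 1 and 0.934 to 4.43 CPM in the other 3 onset libraries. Without onset 1, 4 members passed the filter, 3 higher and 1 lower, with a median of 0.91. The mean T cell level of naive 1 and naive 2, at 1.40 and 1.09 log2 CPM, was also above that of all pre libraries.

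Interferon response genes that passed the filter on low counts mostly had a higher level at onset, and onset 3 carried much of this. Of 28 tested, 25 were higher and 3 lower (median 0.53), and without onset 3 it was 13 higher and 12 lower of 25 (median 0.039). With pre and onset libraries alone 13 passed the filter, 11 higher and 2 lower (median 0.32). Sparse genes can pass it through the libraries where they are high, so no direction is read from the first count. Their mean was 1.48, 1.38, 2.01 and 2.10 log2 CPM in pre and 2.23, 1.31, 3.15 and 1.72 at onset. Igtp, an immunity-related GTPase induced by interferon-gamma, was the 1 member without overlap, at 2.02, 1.64, 1.75 and 2.52 CPM in pre and 5.69, 3.64, 9.64 and 3.89 at onset (1.51 ± 0.41, adjusted p = 0.615). Naive libraries were at 1.26, 3.67, 3.36 and 1.97 CPM and overlapped both. Irgm1, a relative of Igtp, was at 2.82, 3.12, 3.84 and 3.02 CPM in pre and 6.07, 2.91, 5.73 and 4.82 at onset (0.60 ± 0.27). Gbp2, a guanylate-binding protein named after its values were seen, was at 0.403, 0.493, 2.44 and 0.755 CPM in pre and 3.03, 0.727, 5.99 and 1.56 at onset (1.57 ± 0.76). In all 3 genes onset 2 was the lowest onset library, and it was also the lowest of all 8 for Müller glia markers, at 4.12 log2 CPM. The levels of microglia, Müller and rod markers were highest in onset 3, as were Igtp and Gbp2, while Irgm1 was highest in onset 1. The part of these cell markers in the difference was not tested.

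Many promoters of the interferon response list, which was made of genes known to respond to interferon, hold a shared motif. Among 23 tested interferon response genes with a promoter window in the RefSeq table (GRCm38.p6, 250 bases before to 50 after the gene's start), 15 (65.2%) held the interferon-stimulated response element core (GAAA, any 2 bases, GAAA) on either strand. It was in 404 of 11601 tested genes with a window (3.48%). The gamma-activated site TTCNNNGAA was in 8 of the 23 (34.8%) and in 8.1% of tested genes. These are letter matches and not measured binding. The windows of Igtp (chr11:58199306-58199605, plus strand), Irgm1 (chr11:48871371-48871670, minus strand) and Gbp2 (chr3:142620413-142620712, plus strand) are shown 5′ to 3′. These are the 3 members with the smallest p among those whose window holds the response element, so its presence was a condition of the choice. Capitals mark the response element, which in Gbp2 lies on the opposite strand and in Irgm1 spans 2 overlapping matches.
Igtp: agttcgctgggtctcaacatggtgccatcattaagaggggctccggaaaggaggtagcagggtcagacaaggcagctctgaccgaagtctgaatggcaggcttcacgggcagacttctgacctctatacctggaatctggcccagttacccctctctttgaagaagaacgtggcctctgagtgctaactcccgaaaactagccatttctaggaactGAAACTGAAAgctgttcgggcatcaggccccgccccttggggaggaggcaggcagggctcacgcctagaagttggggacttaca
Irgm1: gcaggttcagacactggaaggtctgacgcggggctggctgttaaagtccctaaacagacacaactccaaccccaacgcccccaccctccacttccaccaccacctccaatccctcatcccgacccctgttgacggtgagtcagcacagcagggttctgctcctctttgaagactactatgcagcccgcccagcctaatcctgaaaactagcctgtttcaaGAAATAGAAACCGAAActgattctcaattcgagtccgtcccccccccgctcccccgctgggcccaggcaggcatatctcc
Gbp2: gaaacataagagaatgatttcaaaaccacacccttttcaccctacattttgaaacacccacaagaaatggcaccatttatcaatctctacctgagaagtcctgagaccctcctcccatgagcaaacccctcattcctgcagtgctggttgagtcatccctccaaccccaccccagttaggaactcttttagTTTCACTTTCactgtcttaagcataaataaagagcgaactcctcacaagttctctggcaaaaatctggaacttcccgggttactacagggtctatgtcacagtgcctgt

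Most tested antigen presentation genes had a higher level at onset, and all 19 overlapped between the stages. Of 19 tested, 18 were higher and 1 lower at onset (median 0.69, and 0.26 without onset 3). With pre and onset libraries alone 15 passed the filter, 14 higher and 1 lower (median 0.69), and no direction is read from the first count. Psmb8, a subunit of the immunoproteasome, was at 1.41, 1.32, 2.79 and 2.52 CPM in pre and 5.31, 1.21, 9.9 and 3.11 at onset (1.30 ± 0.54). Tap2, a subunit of the peptide transporter, was at 7.26, 8.72, 8.03 and 8.31 CPM in pre and 14.4, 6.3, 16.4 and 11.4 at onset (0.57 ± 0.28). For both genes onset 1 and onset 3 were the highest and onset 2 the lowest of the 8 libraries. H2-DMa, a chaperone of class II peptide loading, was the 1 lower member, at 18.1, 16.9, 16.4 and 15.9 CPM in pre and 11, 13.1, 16.7 and 13.2 at onset (−0.32 ± 0.14). The response element was in 3 of 15 antigen presentation promoters.

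Cytokine and NF-kB genes had the same dependence on onset 3. Of 22 tested, 21 were higher and 1 lower (median 0.74), and without onset 3 it was 11 and 10 of 21 (median 0.035). With pre and onset libraries alone 15 passed the filter, all 15 higher (median 0.49), and no direction is read from the first count. Ccl12, a monocyte-attracting chemokine, was at 1.61, 1.48, 2.79 and 2.27 CPM in pre and 2.27, 3.39, 18.8 and 3.42 at onset (1.81 ± 0.64). Tnf was at 0.403, 0, 1.05 and 2.52 CPM in pre and 0.379, 1.21, 17.98 and 2.96 at onset (2.61 ± 1.17). For both, onset 3 stood far above the other 7 libraries. Cxcl12, a chemokine made by vessels and stroma, was the member without overlap and with a different order, at 13.7, 13.8, 10.8 and 4.78 CPM in pre and 16.7, 15.5, 18.8 and 24.6 at onset (0.80 ± 0.32); onset 4 was highest and pre 4 lowest. Complement genes were near the background in size (12 higher, 2 lower, median 0.14), and the median turned in 8 of 22 settings, to −0.61 without onset 3. C4b was at 1.41, 4.11, 6.29 and 9.56 CPM in pre and 7.58, 1.45, 42.5 and 7.63 at onset (1.49 ± 0.97). Reactive glia and acute phase genes were 13 higher and 2 lower (median 0.78, and 0.082 without onset 3), and with pre and onset libraries alone 10 higher and 2 lower of 12. Socs3, a feedback inhibitor of cytokine signalling, was at 13.7, 11.2, 18.5 and 17.6 CPM in pre and 17.1, 13.1, 87.3 and 20.5 at onset (1.19 ± 0.57), with onset 3 alone apart. Among vessel genes, Tek, the endothelial angiopoietin receptor, did not overlap, at 2.62, 2.14, 2.79 and 1.51 CPM in pre and 4.55, 2.91, 4.95 and 3.89 at onset (0.84 ± 0.31). Of 10 endothelial genes, 5 passed the filter, all 5 higher (median 0.57, and 0.21 without onset 3). Without a filter on low counts, 6 of the 10 were higher and 3 lower (median 0.12). No direction is read from the first count.

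**Figure D5:**
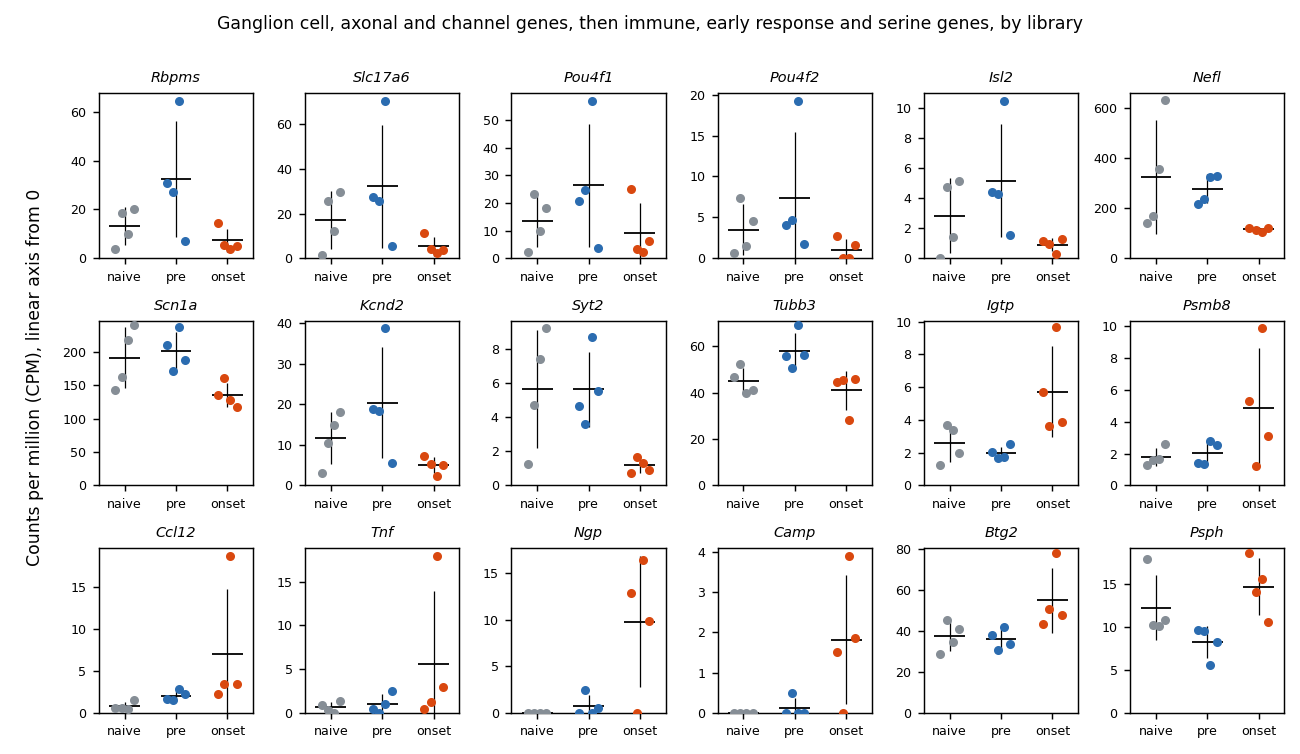
CPM of 18 ganglion cell, axonal, channel, immune, early response and serine genes in each naive, pre and onset library (points; bar, mean; line, SD; n = 4 per group; linear axes from 0). Nefl and Syt2 at onset lie under pre in every library, Igtp, Btg2 and Psph above it, while Ccl12 and Tnf are high in 1 onset library, at 18.77 and 17.98 CPM.

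Immediate early genes, which neurons and glia induce within minutes of a stimulus, were mostly higher at onset. Of 21 tested, 17 were higher and 4 lower (median 0.67), and 5 had an unadjusted p under 0.05, all higher, where 3.1% of all tested genes were higher and 3.71% lower at that threshold. Without onset 3 the median was 0.34, and without the 4 libraries richest in rod markers it was 0.16. Ier5 was at 79.9, 93.6, 77.5 and 66.5 CPM in pre and 125, 91.4, 129 and 159 at onset (0.67 ± 0.17), and Ier2 at 26.2, 24.5, 21.7 and 11.6 and 24.3, 43.2, 48.7 and 32.8 (0.82 ± 0.25). In each, 1 onset library reached into the pre range. Btg2, an antiproliferative early response gene, was at 37.7, 30.4, 41.9 and 33.5 CPM in pre and 43.2, 50.7, 77.9 and 47.5 at onset (0.62 ± 0.19), the 1 member without overlap. Egr1 and Fos, named after their values were seen, were variable within both stages: Egr1 was at 348, 139, 88.7 and 46.8 CPM in pre and 154, 881, 326 and 205 at onset. The cyclic AMP response element TGACGTCA was in 2 of 17 promoter windows of the list (11.8%), those of Btg2 and Dusp1, and in 3.41% of tested genes. The window of Btg2 (chr1:134079106-134079405, minus strand, RefSeq, GRCm38.p6) carries it at the capitals. It is shown because Btg2 had the smallest p among the members whose window holds the element.
Btg2: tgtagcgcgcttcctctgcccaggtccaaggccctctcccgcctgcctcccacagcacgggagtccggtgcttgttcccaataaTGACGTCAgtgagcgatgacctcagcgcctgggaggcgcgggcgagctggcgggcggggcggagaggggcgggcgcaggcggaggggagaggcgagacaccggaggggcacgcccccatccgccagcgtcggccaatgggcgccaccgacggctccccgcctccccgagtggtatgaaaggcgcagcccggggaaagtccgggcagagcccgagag

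Genes of serine synthesis and one-carbon folate metabolism were higher at onset with less dependence on single libraries. Of 12 tested, 10 were higher and 2 lower (median 0.58, from 0.38 to 0.82 on leaving out each library). A total of 3 members had onset above pre without overlap, where 1.98% of all tested genes did. Psat1, the aminotransferase of serine synthesis, was at 26.01, 46.4, 36.7 and 29.5 CPM in pre and 61.8, 53.6, 62.6 and 56.6 at onset (log2 fold change 0.75 ± 0.16, adjusted p = 0.579). Psph, the phosphatase of the last step, was at 9.68, 9.54, 5.59 and 8.31 CPM in pre and 18.6, 14.1, 15.6 and 10.6 at onset (0.79 ± 0.25). Mthfd1, a trifunctional folate enzyme, was at 26.4, 31.2, 32.8 and 35.5 CPM in pre and 54.98, 33.5, 39.1 and 37.97 at onset (0.39 ± 0.14), with onset 2 inside the pre range. Shmt1, a serine hydroxymethyltransferase named after its values were seen, was the third without overlap, at 5.44, 5.59, 3.14 and 2.01 CPM in pre and 7.96, 6.55, 5.99 and 8.25 at onset (0.79 ± 0.31). Phgdh, the enzyme of the first step and also named afterwards, overlapped, at 1.81, 10.5, 10.5 and 1.51 CPM in pre and 9.48, 13.3, 13.6 and 3.58 at onset. The pre libraries themselves were uneven, with pre 1 and pre 4 low in Phgdh, and naive libraries had list means of 4.17 to 4.81 log2 CPM against 3.59 to 4.50 in pre and 4.22 to 4.81 at onset. Onset thus overlapped naive throughout.

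Energy metabolism differed by small amounts. Of 20 glycolysis genes, 14 were lower and 6 higher (median −0.12, and −0.048 without pre 4). Pfkp, the platelet-type phosphofructokinase, was at 2216, 1547, 2009.6 and 2716 CPM in pre and 1359, 1633, 1507 and 1446 at onset (−0.51 ± 0.14), with onset 2 inside the pre range. Ldha, lactate dehydrogenase A, was at 400.3, 411, 410.4 and 532 CPM in pre and 359, 347, 359.7 and 364 at onset (−0.30 ± 0.097), without overlap. Of 80 nuclear genes of oxidative phosphorylation, 52 were higher and 28 lower (median 0.039), and 4 were above pre without overlap, where 1.98% of all tested genes were. The median turned to −0.023 without pre 3. Sdha, the flavoprotein of succinate dehydrogenase, was at 319.6, 337, 294 and 308 CPM in pre and 362, 368, 350.04 and 364 at onset (0.20 ± 0.063). The cholesterol synthesis median was 0.11 (16 higher, 5 lower) and turned to −0.016 without pre 4; Mvd, a mevalonate pathway enzyme, had 0.45 ± 0.14.

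Heat shock genes leaned lower at onset by a small amount, and chromatin genes lay near 0. Of 16 heat shock genes, 12 were lower (median −0.14, and −0.091 without onset 1). Hsph1, a large cytosolic chaperone, was at 103, 119, 129 and 151 CPM in pre and 64.1, 95.8, 82.1 and 91.4 at onset (−0.58 ± 0.17), and Dnaja1, a co-chaperone of HSP70, differed by −0.29 ± 0.11; neither overlapped. Unfolded protein and integrated stress response genes had a median of 0.017 (12 higher, 9 lower). Xbp1, the transcription factor of the unfolded protein response, was lower without overlap, at 95.8, 127, 119 and 111 CPM in pre and 72.8, 93.6, 81.3 and 89.8 at onset (−0.42 ± 0.15), and Atf5 was higher with overlap (0.71 ± 0.33). Cytosolic ribosomal protein genes had a median of 0.065 (61 of 81 higher), which was −0.031 without onset 3. The proteasome median was 0.030, that of cell death and p53 target genes 0.030 and those of the H3K4 methyltransferase, chromatin remodeller and giant ubiquitin ligase lists −0.013, −0.0015 and −0.0021. Sesn1, a p53 target, was higher without overlap, at 55.7, 57.2, 56.9 and 60.4 CPM in pre and 76.97, 66.2, 72.98 and 65.8 at onset (0.29 ± 0.09).

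The direction of the difference followed transcript length weakly. Over quintiles of exon length, from shortest to longest, the median log2 fold change was 0.061, 0.038, 0.013, −0.0084 and −0.018. The share of genes lower at an unadjusted p under 0.05 went from 2.26% in the shortest to 5.75% in the longest quintile. With each library's length trend removed, the voltage-gated channel median was −0.15 and the presynaptic one −0.18. The median of spectrin genes then was −0.097 (9 of 15 lower), that of oxidative phosphorylation genes 0.0076 (42 higher, 38 lower) and that of ribosomal protein genes 0.037 (52 higher, 29 lower), each nearer to 0 than without that step.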

How the data were processed

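Gene levels were measured by RNA-seq in ganglion cell libraries of 4 naive, 4 pre, 4 onset and 1 peak sample. The table holds counts of reads per gene, deposited by the authors; it contains whole numbers with no normalization. Cutadapt, HISAT2, HTSeq and DESeq2 are named in the submitters' processing notes, with no role or version. Of the build, the gene annotation and the strandedness of counting, each is not given in the sources used here. Overlapping and antisense genes and near-identical copies may share reads. A second peak sample was not analysed here. The 5 HTSeq summary lines were left out of library sizes and tests; reads outside features made up 26.7% to 28.8% of the reads that were counted, ambiguous or outside features in pre and onset. Gene totals of these libraries, 2596705 to 6413329, limit precision for genes near 1 CPM.

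The test was the edgeR 4.0.16 quasi-likelihood test (R 4.3.3): filterByExpr with a minimum count of 10, TMM factors, and 1 robust fit over all 13 libraries with stage as the factor (9 residual degrees of freedom), the contrast onset minus pre and Benjamini-Hochberg adjustment over 14893 genes at 0.05. The common biological coefficient of variation was 0.22. Log2 CPM used a prior count of 2, and errors are SE for fold changes and SD for levels. Low counts were compared over the 4 libraries of a group, with exact binomial intervals of the ratio. The pipeline was tested on simulated data. Alternatives were DESeq2 1.42.0, voom with quality weights (limma 3.58.1), other size factors and filters, pre and onset alone, a replicate block, a rod marker covariate, removal of a trend over exon length (lengths for 93.5% of genes, lowess span 0.3), and leaving out each library. Fits without the 4 libraries richest in rod markers, without the peak library and by DESeq2 without independent filtering were added after seeing the data.

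The comparison, the lists and their members were chosen with earlier results of these data known. Since fewer than 5 genes passed, the text names the 12 genes with the smallest p in each direction among those with no overlap between the groups, a mean of at least 1 CPM and a proper symbol, the 3 members of each list with the smallest p, and a fixed set of ganglion cell genes (Nefl, Sncg, Thy1, Rbpms, Slc17a6 and both Pou4f factors); others are said to be named after their values were seen. Of the table's symbols, 39346 (96.3%) were found in the RefSeq table, from which promoter windows were read.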

Additional observations from a re-analysis of the deposited data

Results flagged for a closer look

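In 42 of the groups of 4 libraries examined (34 of 308 gene groups and 8 of 88 list means), 1 library stood apart from the other 3 by Dixon's criterion. Chance meets it in about 1 in 20 groups of normally distributed values, and CPM of sparse genes need not follow that rate. With 3 libraries at 0 it is met by any value above 0, as for Camp in pre. No excess over chance is read from these counts. No explanation of these values was tested.

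Onset 3 held most of the immune and photoreceptor values of this kind. There Socs3 was at 87.3 CPM, C4b at 42.5, Ccl12 at 18.8 and Tnf at 18 CPM, and the highest of the other onset libraries had 20.5, 7.63, 3.42 and 2.96 CPM. Tmem119 was at 62 CPM, the rod gene Rcvrn at 108 CPM and the bipolar gene Isl1 at 12.5 CPM in onset 3, with the others at most 19.0, 22.7 and 3.11. The list means of microglia and bipolar cell genes were high there (6.21 and 4.88 log2 CPM), while Tubb3 (28.4 CPM) and the mean of postsynaptic genes (7.14 log2 CPM) were low.

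Onset 1 stood high in the T cell genes Lck (7.2 CPM) and Cd2 (2.65 CPM), in the ganglion cell gene Rbpms (14.4 CPM), in Nrn1 (9.48 CPM), a neurite growth factor, and in Onecut1 and Bfsp1 (3.03 CPM each), and low in the remodeller Smarca2 (447 CPM). Onset 2 was high in Thy1 (681 CPM) and low in Tpm3 (43.2 CPM) and Rgs5 (3.15 CPM), and onset 4 was high in Nefh (40.6 CPM) and Adcyap1 (0.311 CPM, with the other 3 at 0) and low in Atf5 (25.5 CPM).

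Among pre libraries, pre 3 was high in Pou4f2 (19.2 CPM), Isl1 (17.5 CPM), Map1a (585 CPM), Sptb (279 CPM), Herc2 (766 CPM) and Lck (1.75 CPM). Its list means were high for plexins and semaphorins (6.29 log2 CPM) and giant ubiquitin ligases (8.74) and low for nuclear oxidative phosphorylation genes (5.26). Pre 4 was high in Rcvrn (46.1 CPM), Shank2 (311 CPM), Ldha (532 CPM) and Cd2 (0.252 CPM, 1 count). Pre 1 was high in Rpl7 (87.9 CPM) and low in the means of chromatin remodellers (8.07 log2 CPM) and heat shock genes (5.54 log2 CPM). Pre 2 was low in Kcnab2 (293 CPM) and high in Camp (0.493 CPM).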

How the results depend on the processing

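The count of called genes was 0 under the main test and under every alternative except DESeq2, which called 22 (3 higher and 19 lower), and DESeq2 without independent filtering, which called 9 (2 higher and 7 lower). The cause was not tested. On leaving out each library the count ranged from 0 to 0, and the genes at an unadjusted p under 0.05 numbered 753 without pre 3 to 1229 without pre 2, with smallest adjusted p-values of 0.9101 and 0.1603. The adjusted p of Abcc8 ran from 0.002187 to 0.9101 over settings, that of Plxnb1 from 0.000349 to 0.9101, and their log2 fold changes kept their sign. A replicate block gave 0 calls, with 863 genes at an unadjusted p under 0.05 (727 with pre and onset alone). Same-numbered pre and onset libraries had correlations of deviations of −0.197, 0.250, 0.172 and −0.393, and not every library correlated best with its own number. Differences in cell content between libraries enter these correlations, so they cannot decide whether shared numbers pair libraries. The labels do not say so. Over 154 named genes and 22 settings, 3293 of the values that could be computed kept direction and side of the threshold, 21 passed it only in an alternative and 15 turned; a gene below a setting's filter has no value there. Rdh5 turned with the block (−0.038), with the rod covariate (−0.034) and without the rod-rich libraries (−0.29), and Cngb3 without the latter (0.047). On leaving out each library, Rdh5 ranged from −0.40 to 0.29, Rcvrn from −0.12 to 2.25, Prph2 from −0.11 to 1.985, Kdr from −0.17 to 0.93, Pdgfrb from −0.15 to 1.445, Arr3 from −1.13 to 0.23, Cngb3 from −0.59 to 0.21, Aif1 from −0.88 to 0.26 and Thy1 from −0.013 to 0.11; the causes were not tested. Depth limits genes near 1 CPM, where a single library's floor is 0.467 to 1.14 CPM.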

Other observations

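Neutrophil and monocyte transcripts were lower in naive libraries than in all pre libraries. The summed level of the list was 5.97 to 50.03 CPM in naive, 63.1 to 125 CPM in pre and 40.003 to 283 CPM at onset. S100a8, part of the calprotectin pair, was at 2.42, 9.7, 3.14 and 6.54 CPM in pre and 12.1, 0.97, 22.2 and 9.18 at onset, and at 0 counts in naive. The difference from naive was not tested.

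The remaining marker lists were small. The 5 tested astrocyte genes had a median log2 fold change of 0.17, which turned in 6 of 22 settings, and Gfap, the intermediate filament of reactive glia, was at 1.01, 1.15, 2.1 and 3.27 CPM in pre and 2.65, 0, 6.52 and 5.91 at onset. Acta2, smooth muscle actin, had 0 counts in pre and 8 at onset. Its onset level was 2.80 times a floor of 3 counts over the pre group. Cd3e, a T cell receptor subunit, had 0 and 7 counts, with an onset level of 2.45 times that floor. Both ratios leave out the counting error of the onset counts and are not lower limits. The summed T cell list was at 30.3 CPM in onset 1 and at most 4.43 CPM in the other onset libraries. Slc6a9, the glycine transporter of amacrine cells, was at 1400.05, 2004, 1619.8 and 1379 CPM in pre and 2639, 1590.4, 2094 and 2557 at onset (0.47 ± 0.18). Mobp, a myelin gene at 0 counts in all 8 libraries of the comparison, had 43 counts in the naive group. No mitochondrially encoded gene was in the table under the symbols used.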
